A study of Mus musculus with 18 samples.

Results

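The 37 genes described here encode the NF-kB signalling module of T cells, from the kinases and adaptors that switch it on to the inhibitors that switch it off. They were chosen by name for their known roles, by a rule that uses no measured value but with earlier results of these data known. All 37 were among the 15137 gene symbols measured. All 37 also reached the minimum level for testing, a normalized value of at least 10 on the linear scale in at least 3 libraries, as did 10877 genes in all. Expression was measured by RNA sequencing in naive CD4+ T cells of the inbred mouse strain C57BL/6J, sorted from the spleen as CD3+CD4+CD25-CD62L+CD44- cells. Mice were either Creld1 conditional knockouts (cKO), in which Cre recombinase is driven by CD4 regulatory sequences and so acts in developing T cells of both main lineages, or controls. Cells of each genotype were profiled after 8 h of culture in IMDM medium with anti-CD3 and anti-CD28 at 1 µg/ml each, which engage the T cell receptor complex and its co-receptor (stimulated), after 8 h in the medium without antibodies (unstimulated), or directly after isolation (fresh). Each of the 6 groups had 3 libraries, 18 in all. The sources used here do not give the age of the mice or whether the controls carried Cre. The label that identifies the mouse is the same for all 3 libraries of a group, so whether they are separate animals is not stated and the spread behind each p-value may be technical.

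NF-kB is a family of dimeric transcription factors built from the Rel, RelA and RelB proteins and the products of Nfkb1 and Nfkb2, held in the cytoplasm of resting cells by IkB proteins. When the T cell receptor and CD28 are engaged, a complex that holds BCL10 and MALT1 recruits ubiquitin ligases and the TAK1 kinase and activates the IKK kinases, which mark IkB for destruction and free the dimers. An alternative branch runs through the kinase NIK, which the TRAF and cIAP proteins keep low, to RelB and the product of Nfkb2. The pathway induces several of its own brakes, among them IkB genes such as Nfkbia, and Tnfaip3, whose product A20 edits ubiquitin chains on the signalling complexes.

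The values were normalized expression on a log2 scale, and a difference is a difference of group means on that scale. Markers of naive CD4+ T cells were present in every library, with 8 of 8 markers in the table reaching the minimum level. Most markers of other lineages were near the floor, with 1 of 5 B cell, 1 of 5 myeloid and dendritic, 2 of 6 CD8 T and NK, and 0 of 3 red cell markers reaching it. Of the CD8 T cell genes, Cd8b1 averaged 6.41 on the log2 scale over all libraries and Cd8a 1.59. All 4 regulatory T cell markers reached the minimum, with means between 5.87 (Foxp3) and 8.34 (Ctla4), as did 2 of 4 memory T cell markers, Cd44 (7.55) and Itgb1 (8.79). Creld1 itself was low, at 4.14, 4.62 and 4.37 in stimulated cKO against 4.41, 5.10 and 4.71 in stimulated control libraries, 3.95, 4.33 and 3.82 in unstimulated cKO against 4.81, 4.88 and 5.40 in unstimulated control libraries, and 4.19, 3.70 and 4.40 in fresh cKO against 4.33, 4.85 and 4.57 in fresh control libraries. The groups overlapped except in unstimulated culture, and no cKO minus control difference passed over all genes (-0.36, -0.999 and -0.49, each ± 0.23 SE; limma, adjusted p = 0.974, 0.103 and 0.79). In unstimulated culture Creld1 passed in a fit of only the groups compared, with library weights, with runs of library numbers as a block and without fresh cKO replicate 3 (adjusted p = 0.0181), and in fresh cells it passed with library weights. Libraries of a group differed in GC slope, the change in log2 value of a library per SD of transcript GC content relative to the mean of all libraries. The spread was largest in fresh cKO cells (SD 0.25). There the slope was 0.16 in replicate 3, against -0.19 and -0.31 in the other fresh cKO libraries. Other libraries stood apart too. The slope was -0.16 in fresh control replicate 1, against 0.085 and 0.066 in the other fresh control libraries. It was -0.029 in stimulated cKO replicate 1, against 0.152 and 0.151 in the other stimulated cKO libraries. Counts of called members are given also without fresh cKO replicate 3, as are the members named for it.

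The region around the transcription start is shown for 4 members called with culture. Tnfaip3 and Bcl10 fell in both genotypes, the fall of Nfkbid passed in cKO cells only, and Nfkb2 rose in control cells. Each run is the RefSeq promoter window of 300 bases (250 before the start and 50 after it, build GRCm38.p6), 5′ to 3′ on the gene's strand. Capitals mark matches to the kB consensus, the sequence that NF-kB dimers bind, on either strand.
Tnfaip3, chr10:19015361-19015660, minus strand: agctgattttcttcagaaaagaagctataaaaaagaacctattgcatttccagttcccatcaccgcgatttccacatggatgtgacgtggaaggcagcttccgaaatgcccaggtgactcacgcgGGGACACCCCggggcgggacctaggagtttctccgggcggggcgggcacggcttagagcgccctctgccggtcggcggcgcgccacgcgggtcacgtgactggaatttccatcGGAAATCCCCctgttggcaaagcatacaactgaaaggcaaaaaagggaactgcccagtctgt
Nfkbid, chr7:30422156-30422455, plus strand: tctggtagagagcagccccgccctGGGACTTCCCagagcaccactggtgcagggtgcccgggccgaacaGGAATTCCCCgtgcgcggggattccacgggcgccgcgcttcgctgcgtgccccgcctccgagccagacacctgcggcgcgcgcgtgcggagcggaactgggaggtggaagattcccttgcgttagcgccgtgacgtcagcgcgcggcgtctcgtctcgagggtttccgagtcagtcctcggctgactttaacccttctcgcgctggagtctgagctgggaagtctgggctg
Bcl10, chr3:145924012-145924311, plus strand: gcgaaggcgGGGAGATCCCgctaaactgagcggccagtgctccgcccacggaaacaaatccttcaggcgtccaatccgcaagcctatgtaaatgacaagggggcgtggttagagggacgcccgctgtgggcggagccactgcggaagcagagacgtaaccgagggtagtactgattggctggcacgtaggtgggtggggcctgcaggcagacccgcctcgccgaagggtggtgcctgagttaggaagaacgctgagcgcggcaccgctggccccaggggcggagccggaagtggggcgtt
Nfkb2, chr19:46304487-46304786, plus strand: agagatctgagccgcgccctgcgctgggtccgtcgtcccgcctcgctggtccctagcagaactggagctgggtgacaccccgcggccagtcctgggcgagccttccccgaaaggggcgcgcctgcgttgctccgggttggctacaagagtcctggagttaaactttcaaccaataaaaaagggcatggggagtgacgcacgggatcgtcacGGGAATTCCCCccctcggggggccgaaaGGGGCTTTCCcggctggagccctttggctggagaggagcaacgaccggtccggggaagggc
The windows held 2 matches each for Tnfaip3 and Nfkbid, 1 for Bcl10 and 3 for Nfkb2, of which a pair overlapped. The windows shown thus all hold a match, which is not so for other members called with culture. Ikbke, Birc2, Birc3, Chuk, Tab2, Traf1, Traf6, Tbk1 and Ikbkg had none in any window, and Nfkbie had 1. Further windows of Tnfaip3 and Nfkbid held none, and those of Nfkb2 held 2 and 1. Of the 37 members, 30 had an entry in the promoter table, and 13 of these (43.3%) had a consensus match in at least 1 of their windows, against 5.14% of 27025 genes in the whole table. The looser pattern GGGNNNNNCC, searched on both strands and containing every consensus match, was present for 24 of the 30 members (80%) and for 53.5% of all genes in the table. A match describes these letters only and was not set against any measure of binding.

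Per length of transcript, Tnfaip3 was the most abundant member in fresh cells. Its mean normalized linear value per kb was 2730 in fresh cKO and 3110 in fresh control cells. It was followed in fresh control cells by Ikbke, an IKK-related kinase, at 1082 and by Nfkbia, the classical IkB-alpha gene, at 826. The lowest member was Bcl3, a nuclear IkB protein, at 30.7. In unstimulated culture Ikbke took the first place, with 1428 per kb in cKO and 1622 in control cells, where Tnfaip3 had 590.1 and 599 per kb. The SDs of the log2 values in fresh control cells were 0.14 for Ikbke and 0.44 for Nfkbia, so the order of neighbours such as Nfkbia and Ikbkb (669 per kb, SD 0.14) is within their spread.

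With 8 h of culture without antibodies, the members with the largest differences in both genotypes were the brake Tnfaip3 and the IkB gene Nfkbiz. Tnfaip3 fell about as far in cKO as in control cells, and Nfkbiz, which encodes the inducible nuclear IkB-zeta, fell with it. Bcl10 and the cIAP gene Birc2 also fell in both genotypes, and the kinase gene Ikbke rose in both. The alternative-branch genes Nfkb2 and Relb rose in control cells. By limma with Benjamini-Hochberg adjustment over all genes, 2 members rose and 5 fell in cKO cells, and 7 rose and 7 fell in control cells. The 7 called in cKO cells are 18.9% of the members, against 22.1% of all tested genes (10.7% higher, 11.4% lower). The 14 called in control cells are 37.8%, against 29.0% of all tested genes (14.9% higher, 14.1% lower). The cKO share is near the background. In a fit of only the groups compared 3 members were called in cKO cells (7.46% of all genes) and 16 in control cells (29.9%). With library weights 19 were called in cKO (48.4% of all genes) and 20 in control cells (50.3%).

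Tnfaip3 had log2 values of 11.28, 11.31 and 11.45 in unstimulated cKO libraries, against 13.47, 13.55 and 13.65 in fresh cKO libraries. It had 11.33, 11.36 and 11.43 in unstimulated control libraries, against 13.67, 13.57 and 13.97 in fresh control libraries. Every cultured library was thus well below every fresh one. The fall was 4.63-fold in cKO cells (-2.21 ± 0.09 SE, limma adjusted p = 1.0e-09) and 5.15-fold in control cells (-2.37 ± 0.09, adjusted p = 3.54e-10), the smallest adjusted p of all tested genes in each comparison. In bulk samples such as these, fewer cells of a type and less RNA per cell cannot be told apart.

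Nfkbiz had 8.79, 8.86 and 8.74 in unstimulated cKO libraries, against 10.23, 10.31 and 10.50 in fresh cKO libraries, and 8.85, 8.97 and 8.94 in unstimulated control libraries, against 10.16, 10.40 and 10.38 in fresh control libraries. The groups did not overlap, and the fall was -1.55 ± 0.09 in cKO (adjusted p = 1.8e-08) and -1.40 ± 0.09 in control cells (adjusted p = 5.18e-08). Nfkbid, which encodes the related nuclear protein IkB-NS, had 8.22, 8.28 and 8.33 in unstimulated cKO libraries, against 8.83, 8.82 and 9.66 in fresh cKO libraries. It fell in cKO cells by 1.77-fold (-0.82 ± 0.24, adjusted p = 0.022), a call lost without unstimulated cKO replicate 1 or 2 and without fresh cKO replicate 3 (-0.54 ± 0.22, adjusted p = 0.0723). In control cells Nfkbid had 8.38, 8.70 and 8.99 in unstimulated against 9.05, 9.29 and 9.45 in fresh libraries, a difference that missed the threshold (-0.57 ± 0.24, adjusted p = 0.0857) and passed with GC slope as covariate (-0.90 ± 0.12, adjusted p = 7.41e-06). The classical inhibitor Nfkbia passed in neither genotype, with differences of -0.38 ± 0.26 in cKO (adjusted p = 0.326) and 0.26 ± 0.26 in control cells (adjusted p = 0.457). Its control value changed sign, to -0.10 ± 0.11, with the covariate, and its cKO value passed there (-0.35 ± 0.10, adjusted p = 0.00742). Nfkbie, encoding IkB-epsilon, rose in control cells (0.53 ± 0.16, adjusted p = 0.0197), a call lost without control fresh replicate 1 or 2 or control unstimulated replicate 2 or 3.

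**Figure D1:**
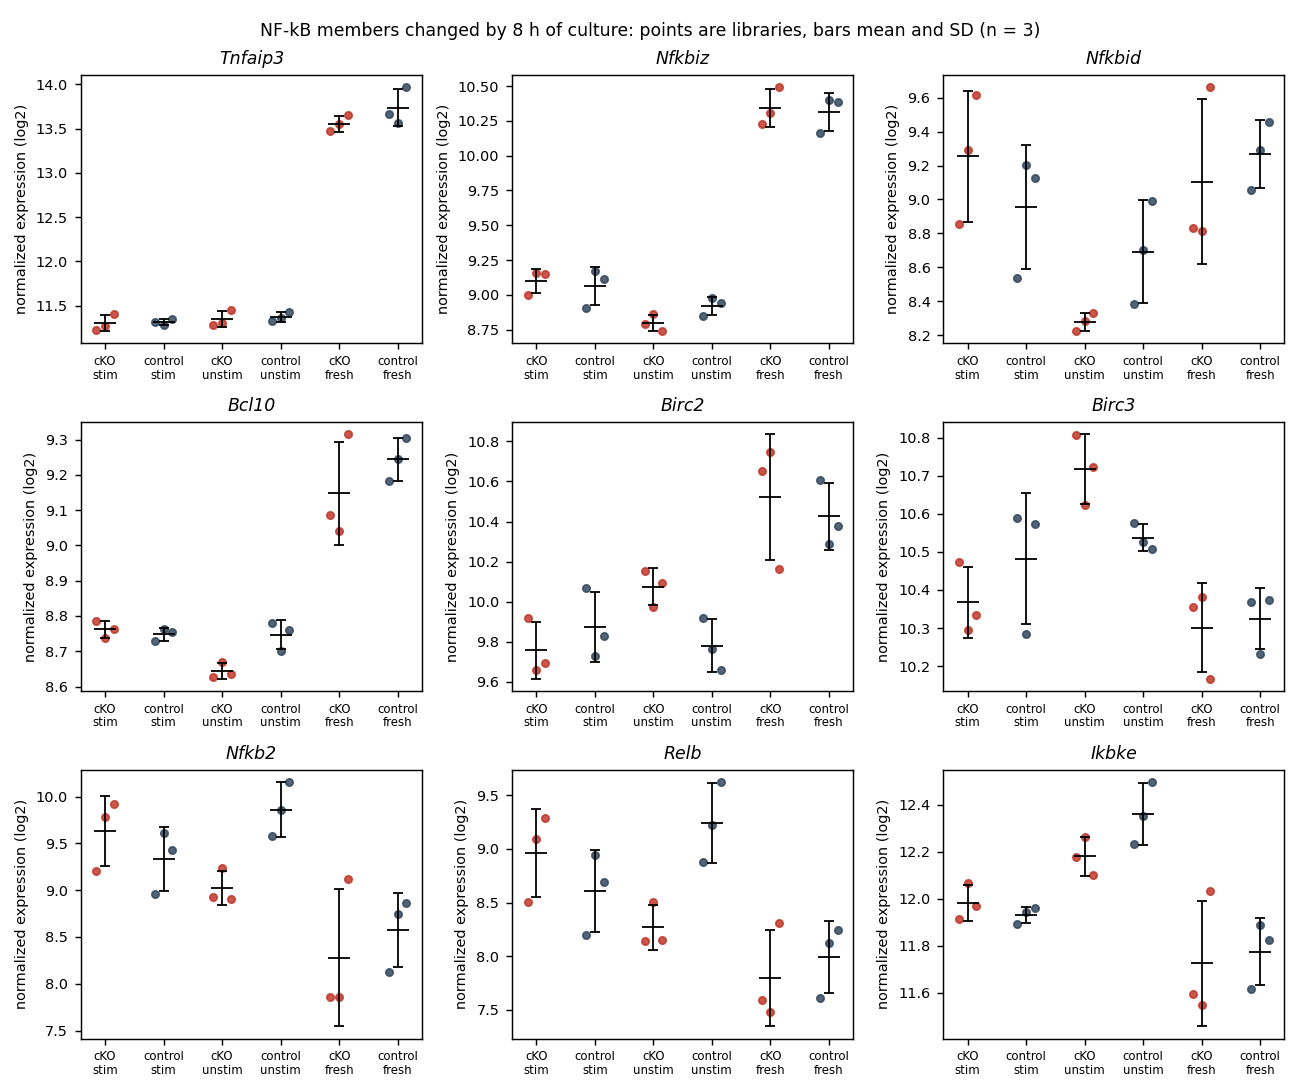
Normalized expression (log2, vertical axes) of 9 NF-kB members in each library (points, Creld1 cKO red, control dark), with mean and SD (bars, n = 3), for stimulated, unstimulated and fresh cells from left to right. Tnfaip3 is between 11.23 and 11.45 in the 12 cultured libraries and between 13.47 and 13.97 in the 6 fresh ones. The vertical axes do not start at 0 and differ between panels.

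Among the signalling components, Bcl10, the adaptor that binds MALT1, had 8.63, 8.67 and 8.64 in unstimulated cKO libraries, against 9.09, 9.04 and 9.32 in fresh cKO libraries. In control cells it had 8.78, 8.70 and 8.76 in unstimulated libraries, against 9.18, 9.24 and 9.31 in fresh ones. Neither genotype's groups overlapped, and Bcl10 fell (-0.50 ± 0.07 in cKO, adjusted p = 0.000154, and -0.50 ± 0.07 in control cells, adjusted p = 0.000149). The fall of Birc2, encoding the ubiquitin ligase cIAP1, was -0.45 ± 0.14 in cKO (adjusted p = 0.0305) and -0.64 ± 0.14 in control cells (adjusted p = 0.00303). The cKO call was lost without any 1 of fresh cKO replicates 1 and 2 and unstimulated cKO replicates 1, 2 and 3, and under TMM-type scaling, under quantile normalization and in a fit of only the groups compared. Its relative Birc3, encoding cIAP2, moved the other way. It rose in cKO cells (0.42 ± 0.09, adjusted p = 0.00346), and in control cells it had a difference of 0.21 ± 0.09 that missed the threshold (adjusted p = 0.0872).

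Ikbke had 12.18, 12.26 and 12.10 in unstimulated cKO libraries, against 11.59, 11.55 and 12.03 in fresh cKO libraries. In control cells it had 12.23, 12.35 and 12.50 in unstimulated libraries, against 11.61, 11.89 and 11.82 in fresh ones. It rose in cKO (0.45 ± 0.11, adjusted p = 0.00868) and in control cells (0.59 ± 0.11, adjusted p = 0.00132), with no overlap in either. Of the other kinase genes, Ikbkg, the regulatory subunit NEMO, rose in control cells (0.41 ± 0.10, adjusted p = 0.00798), and so did the IKK-related kinase Tbk1 (0.24 ± 0.07, adjusted p = 0.0145). Chuk, encoding IKK-alpha, fell in control cells (-0.42 ± 0.10, adjusted p = 0.00619). The Tbk1 call was lost without control fresh replicate 1 or control unstimulated replicate 1. In a fit of only the groups compared, Tbk1 in control cells and Nfkbid, Ikbke and Birc3 in cKO cells did not pass either.

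Tab2, Traf1 and Traf6 passed in control cells alone, which is not a test of a difference between genotypes. The TAK1 adaptor gene Tab2 fell (-0.38 ± 0.10, adjusted p = 0.00933, lost without control fresh replicate 1). The adaptor Traf1 (0.41 ± 0.15, adjusted p = 0.0496) and the ubiquitin ligase Traf6 (-0.31 ± 0.11, adjusted p = 0.0413) stood at the threshold and lost their calls without any 1 of 14 and 11 of the 18 libraries, and in 3 further settings each. The count of members called in control cells was 9 without control fresh replicate 1, in a fit that called 19.3% of all genes.

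Nfkb2 had 8.93, 9.24 and 8.90 in unstimulated cKO libraries, against 7.86, 7.85 and 9.12 in fresh cKO libraries, so that replicate 3 of the fresh group lay among the cultured libraries. In control cells it had 9.58, 9.85 and 10.16 in unstimulated libraries, against 8.12, 8.74 and 8.86 in fresh ones. Nfkb2 rose 2.44-fold in control cells (1.28 ± 0.31, adjusted p = 0.0058), and in cKO cells the difference was 0.75 ± 0.31 (adjusted p = 0.096). Relb had 8.15, 8.51 and 8.15 in unstimulated cKO libraries, against 7.60, 7.48 and 8.31 in fresh cKO libraries. In control cells Relb had 8.88, 9.22 and 9.62 in unstimulated libraries, against 7.62, 8.12 and 8.24 in fresh ones, and rose 2.37-fold (1.25 ± 0.27, adjusted p = 0.00285). The cKO difference of Relb was 0.47 ± 0.27 (adjusted p = 0.233). Both passed in cKO cells without fresh cKO replicate 3, Nfkb2 at 1.17 ± 0.25 (adjusted p = 0.00227) and Relb at 0.73 ± 0.26 (adjusted p = 0.0456). With each library's GC slope as covariate, Nfkb2 rose in cKO (0.78 ± 0.08, adjusted p = 2.62e-07) and in control cells (0.83 ± 0.09, adjusted p = 3.52e-07), and Relb rose in cKO (0.51 ± 0.10, adjusted p = 0.000452) and in control cells (0.87 ± 0.11, adjusted p = 3.43e-06). An annotated gene on the opposite strand covers 11.6% of the exonic bases of Nfkb2, and the library kit does not mark strand, so reads there cannot be told apart.

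**Figure D2:**
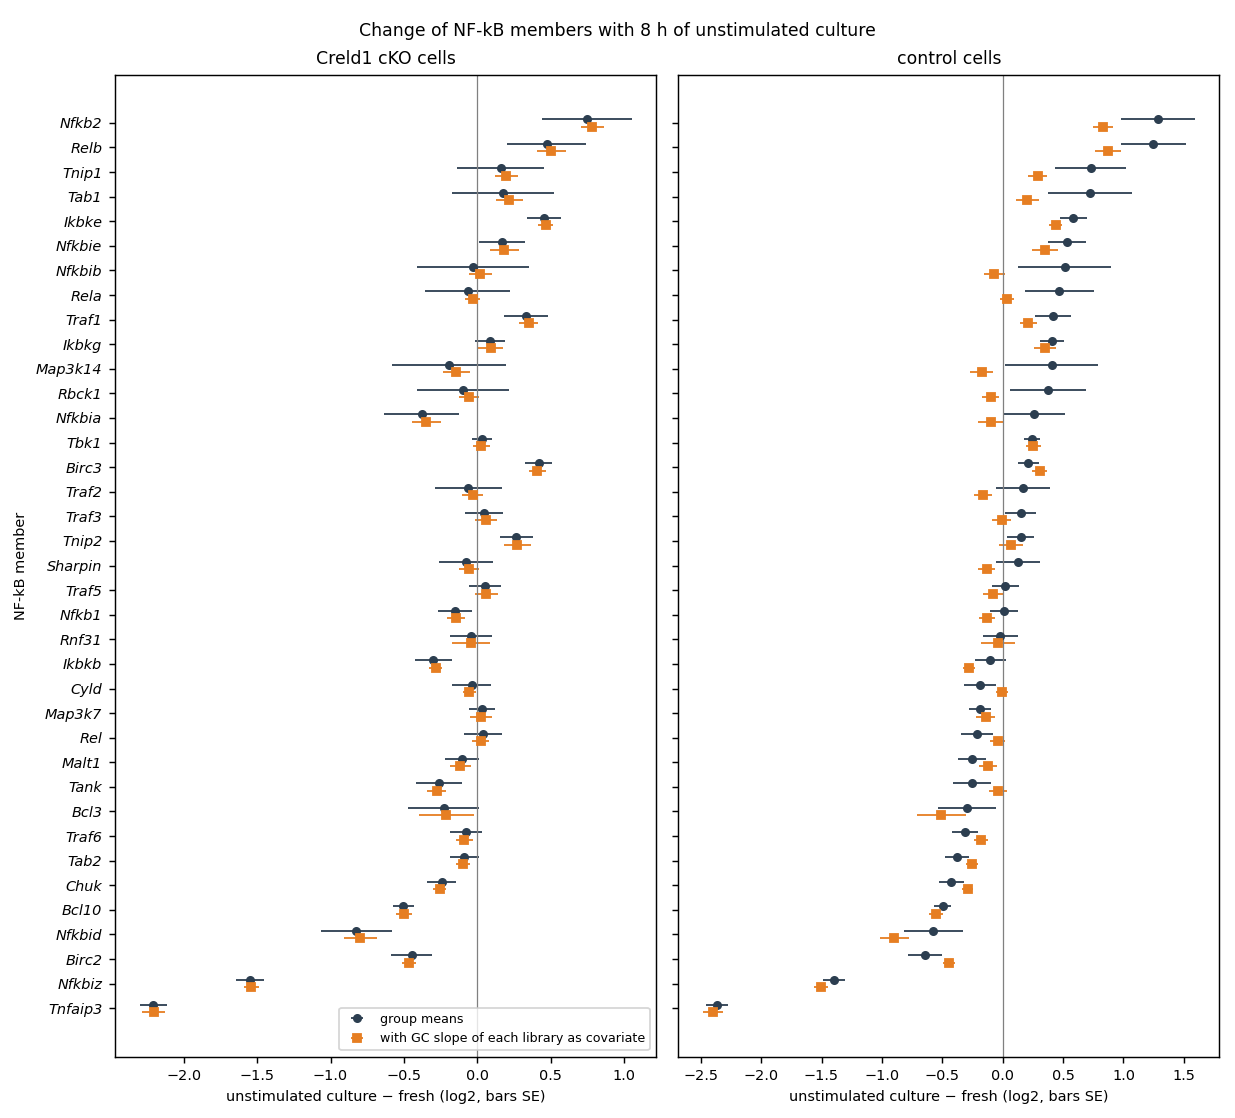
Difference between unstimulated culture and fresh cells (log2, horizontal axes, bars SE) for 37 NF-kB members in Creld1 cKO cells (left) and control cells (right), from group means (circles) and with each library's GC slope as covariate (squares). Tnfaip3 at -2.21 and -2.37 and Nfkbiz at -1.55 and -1.40 are the lowest in both panels, and Nfkb2 and Relb are the highest in control cells at 1.28 and 1.25.

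With the covariate, 7 members rose and 9 fell in cKO cells and 9 rose and 10 fell in control cells, against 45.3% of all tested genes in cKO (20.5% higher, 24.9% lower) and 42.9% in control cells (22.0% higher, 20.9% lower). Without fresh cKO replicate 3, 13 members were called in cKO cells (30.6% of all genes) and 18 in control cells (38.0%). Neither fit found a difference between the genotypes in the effect of culture. The genotype by culture interaction called 0 of 37 members in limma, where 2 had an unadjusted p under 0.05 (5.01% of all genes had one), and 0% of all genes. With the covariate it called 0 as well. Some marker sums moved with culture. The summed linear level of 8 naive CD4 T cell markers was higher in culture, at 62560 to 63735 in unstimulated cKO against 53093 to 56105 in fresh cKO libraries, and at 61388 to 62757 in unstimulated control against 51634 to 51939.6 in fresh control libraries. That of 5 B cell markers was 27.3 to 30.8 in unstimulated cKO against 23.2 to 31.6 in fresh cKO libraries, and 33.4 to 42.6 in unstimulated control against 23.0 to 27.7 in fresh control libraries. The summed linear level of 4 regulatory T cell markers, all above the minimum, was 474 to 507 in unstimulated cKO against 757 to 879 in fresh cKO libraries and 416 to 455 in unstimulated control against 787 to 840.0 in fresh control libraries. The sum of 5 myeloid and dendritic markers, of which 1 reached the minimum, was 29.5 to 35.7 in unstimulated cKO against 42.0 to 56.6 in fresh cKO libraries, and 28.1 to 30.5 in unstimulated control against 39.8 to 50.4 in fresh control libraries. That of 4 memory T cell markers, of which 2 reached it, was 629.6 to 674 in unstimulated cKO against 642 to 896 in fresh cKO libraries, and 533 to 605 in unstimulated control against 721 to 851 in fresh control libraries. That of 6 CD8 T and NK markers, of which 2 reached it, was 107 to 129 in unstimulated cKO against 131 to 171 in fresh cKO libraries, and 115 to 131 in unstimulated control against 129.8 to 164 in fresh control libraries. The part of these cells in the results was not tested.

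Cells cultured with antibodies also had low Tnfaip3 and Nfkbiz relative to fresh cells. In this comparison the stimulated groups were set against the same fresh libraries, so it is not independent of the one above. In cKO cells 5 members rose and 7 fell, or 32.4% of members against 30.3% of all tested genes (14.5% higher, 15.7% lower). In control cells 2 rose and 6 fell, or 21.6% against 18.8% (9.58% higher, 9.26% lower). With the GC covariate 17 and 20 members were called, against 35.2% and 41.0% of all tested genes. Tnfaip3 was 4.77-fold lower in stimulated than in fresh cKO cells (-2.25 ± 0.09, adjusted p = 7.38e-10) and 5.36-fold lower in stimulated than in fresh control cells (-2.42 ± 0.09, adjusted p = 2.46e-10). Nfkbiz fell (-1.24 ± 0.09 in cKO, adjusted p = 2.01e-07, and -1.25 ± 0.09 in control cells, adjusted p = 1.8e-07). Bcl10 also fell (-0.38 ± 0.07 in cKO, adjusted p = 0.00126, and -0.50 ± 0.07 in control cells, adjusted p = 0.000193). So did Birc2 (-0.76 ± 0.14 in cKO, adjusted p = 0.00096, and -0.55 ± 0.14 in control cells, adjusted p = 0.0108).

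Marker sums differed here too. That of the regulatory T cell markers was 570.3 to 635 in stimulated cKO and 533 to 694 in stimulated control libraries, below the fresh ranges given above. So were those of the myeloid and dendritic markers (26.9 to 29.2 in stimulated cKO and 25.4 to 31.5 in stimulated control libraries), the memory T cell markers (521 to 624 and 495 to 637) and the CD8 T and NK markers (124 to 125 and 109 to 127). Those of the naive CD4 T cell markers were above them (57064 to 59386 and 55760.1 to 60504), and those of the B cell markers were above them in control cells (30.8 to 35.2). Their part was not tested.

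Tnip2, which encodes ABIN-2, a ubiquitin-binding partner of A20, went the other way. It had 7.83, 8.07 and 8.02 in stimulated cKO libraries, against 7.01, 7.16 and 7.28 in fresh cKO libraries, and 7.77, 8.04 and 8.07 in stimulated control libraries, against 7.30, 7.36 and 7.38 in fresh control libraries. There was no overlap, and Tnip2 rose 1.77-fold in cKO (0.82 ± 0.11, adjusted p = 7.67e-05) and 1.53-fold in control cells (0.61 ± 0.11, adjusted p = 0.00108). Both calls held in all 29 other settings.

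Of the remaining calls in cKO cells, Nfkb2 (1.36 ± 0.31, adjusted p = 0.00429), Relb (1.16 ± 0.27, adjusted p = 0.00476) and Tab1, a subunit of the TAK1 complex (1.01 ± 0.35, adjusted p = 0.0375), were the largest rises, followed by Traf1 (0.55 ± 0.15). With the covariate the rise was 0.76 ± 0.09 for Nfkb2 (adjusted p = 2.73e-06) and 0.67 ± 0.11 for Relb (adjusted p = 0.000152), and without fresh cKO replicate 3 it was 1.78 ± 0.25 and 1.42 ± 0.26. Tab1 had 7.07, 7.70 and 7.87 in stimulated cKO libraries, against 6.28, 5.82 and 7.49 in fresh cKO libraries, so the groups overlapped through replicate 3 of the fresh group. With the covariate the rise of Tab1 was 0.33 ± 0.10 (adjusted p = 0.0172), and without that replicate it was 1.496 ± 0.28 (adjusted p = 0.000566). The TRAF-binding adaptor Tank (-0.61 ± 0.16), Chuk (-0.47 ± 0.10) and Tab2 (-0.31 ± 0.10) fell in cKO cells. In a fit of only the groups compared, the cKO calls of Nfkb2, Relb, Tab1, Traf1, Tank, Chuk, Tab2 and Bcl10 were lost. The calls of Tab1 and Tab2 were also lost without any 1 of fresh cKO replicates 1 and 2 and stimulated cKO replicates 2 and 3, that of Traf1 without fresh cKO replicate 1 or 2 or stimulated cKO replicate 3, and that of Tank without fresh cKO replicate 2. In control cells Birc2 lost its call without control fresh replicate 1 or control stimulated replicate 2. There Malt1 rose (0.36 ± 0.12), and Bcl3 (-0.80 ± 0.24) and Traf5 (-0.33 ± 0.11) fell, all with an adjusted p between 0.0273 and 0.0465. Those 3 control calls were each lost in 5 to 16 of the 29 other settings. Without fresh cKO replicate 3, 25 members were called in cKO (53.4% of all genes) and 13 in control cells (24.7%). The control count was 5 without any 1 of control stimulated replicates 1 and 2 and control fresh replicates 2 and 3, in fits that called 15.2%, 15.2%, 14.6% and 13.4% of all genes.

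Across these comparisons with fresh cells and those with unstimulated culture, 15 members passed in none. They were the subunit genes Nfkb1, Rel and Rela, the inhibitors Nfkbia, Nfkbib, Tnip1 and Cyld, the kinase genes Ikbkb, Map3k7 (TAK1) and Map3k14 (NIK), the adaptors Traf2 and Traf3, and the 3 LUBAC genes Rnf31, Rbck1 and Sharpin. The share of all tested genes passing in none was not computed, so the count is no result about these members. With unstimulated culture their differences ran from -0.38 to 0.16 in cKO (smallest adjusted p = 0.111) and from -0.21 to 0.73 in control cells (smallest adjusted p = 0.0756). The upper end in control cells was Tnip1, which encodes the A20 partner ABIN-1 (0.73 ± 0.30, adjusted p = 0.0756), and which rose by 0.29 ± 0.08 with the covariate (adjusted p = 0.00829). Ikbkb, encoding IKK-beta, differed by -0.30 ± 0.13 in cKO and -0.10 ± 0.13 in control cells, and with the covariate fell in both (-0.28 in each, adjusted p = 7.83e-05 in cKO and 0.000202 in control cells). With stimulation the 15 ran from -0.29 to 0.90 in cKO and from -0.70 to 0.17 in control cells, and with the covariate from -0.15 to 0.12 in cKO and from -0.28 to 0.18 in control cells. In the fit without fresh cKO replicate 3, which called 53.4% of all genes in stimulated against fresh cKO cells, 10 of the 15 passed there. They were Rel, Rela, Nfkbib, Tnip1, Cyld, Map3k14, Traf2, Traf3, Rbck1 and Sharpin. Ikbkb then passed in stimulated against fresh control cells, and Tnip1 with unstimulated culture in both genotypes.

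Set against unstimulated culture, few members passed with 8 h of anti-CD3 and anti-CD28. One of 37 passed in each genotype, Tnip2 in cKO and Malt1 in control cells, both higher. Over all tested genes, 0.285% passed in cKO (0.276% higher, 0.00919% lower) and 0.349% in control cells (0.313% higher, 0.0368% lower). In limma 15 of 37 members had an unadjusted p under 0.05 in cKO (40.5%) and 10 in control cells (27.0%). Among all 10877 tested genes, 2511 had one in cKO and 1233 in control cells. Tnfaip3 and most signalling components did not pass in either genotype.

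Malt1, the paracaspase that cleaves A20 and other brakes, had 11.16, 11.13 and 11.12 in stimulated cKO libraries, against 10.92, 10.84 and 11.04 in unstimulated cKO libraries. In control cells it had 11.20, 11.13 and 11.44 in stimulated libraries, against 10.69, 10.59 and 10.63 in unstimulated ones. The stimulated libraries were above the unstimulated ones in both genotypes. The difference was 0.20 ± 0.12 in cKO (adjusted p = 0.269), and Malt1 rose 1.53-fold in control cells (0.62 ± 0.12, adjusted p = 0.0309). The control call was lost when any 1 of 8 libraries was left out, which were all 3 control unstimulated replicates, control stimulated replicates 2 and 3, cKO unstimulated replicate 1 and cKO stimulated replicates 2 and 3. With GC slope as covariate, Malt1 rose in cKO (0.39 ± 0.08, adjusted p = 0.0255) and in control cells (0.49 ± 0.07, adjusted p = 0.000794).

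Tnip2 had the values given above in stimulated cells, and 7.38, 7.30 and 7.57 in unstimulated cKO libraries and 7.37, 7.55 and 7.57 in unstimulated control libraries. Stimulated libraries were above unstimulated ones in both genotypes. Tnip2 rose 1.47-fold in cKO cells (0.56 ± 0.11, adjusted p = 0.0465), and the control difference was 0.46 ± 0.11 (adjusted p = 0.105). The cKO call was lost without any 1 of 15 of the 18 libraries, the exceptions being fresh cKO replicate 3 and the first replicates of both stimulated groups, and it was also lost with the covariate (0.45 ± 0.10, adjusted p = 0.0518), with which the control value passed (0.54 ± 0.10, adjusted p = 0.00382).

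Nfkbid had 8.85, 9.29 and 9.62 in stimulated against 8.22, 8.28 and 8.33 in unstimulated cKO libraries, with no overlap, and 8.54, 9.20 and 9.13 in stimulated against 8.38, 8.70 and 8.99 in unstimulated control libraries, which overlapped. The differences were 0.97 ± 0.24 in cKO (adjusted p = 0.115) and 0.26 ± 0.24 in control cells (adjusted p = 0.61). With the covariate they were 0.52 ± 0.13 (adjusted p = 0.0646) and 0.57 ± 0.12 (adjusted p = 0.011). Ikbke had a lower mean in stimulated cells, with differences of -0.20 ± 0.11 in cKO (adjusted p = 0.27) and -0.43 ± 0.11 in control cells (adjusted p = 0.145), and fell in both genotypes with the covariate (-0.40 ± 0.06 in cKO, adjusted p = 0.00136, and -0.29 ± 0.05 in control cells, adjusted p = 0.00523).

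**Figure D3:**
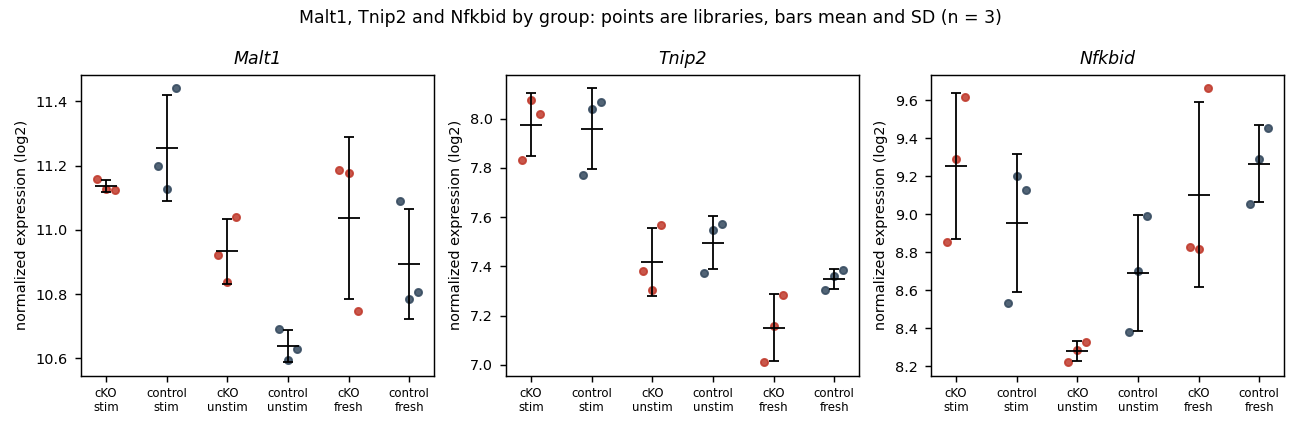
Normalized expression (log2, vertical axes) of Malt1, Tnip2 and Nfkbid in each library (points, Creld1 cKO red, control dark), with mean and SD (bars, n = 3). Stimulated libraries lie above unstimulated ones in both genotypes for Malt1 and Tnip2 and in cKO cells for Nfkbid. The vertical axes do not start at 0.

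Tnfaip3 had 11.23, 11.27 and 11.40 in stimulated cKO and 11.32, 11.28 and 11.35 in stimulated control libraries. The difference from unstimulated culture was -0.04 in cKO (95% interval -0.24 to 0.15) and -0.06 in control cells (-0.25 to 0.14). Relb differed by 0.69 ± 0.27 in cKO cells (adjusted p = 0.2) and by -0.63 ± 0.27 in control cells (adjusted p = 0.396), which have opposite signs and of which neither passed. With the covariate the values were 0.16 ± 0.11 and -0.27 ± 0.11. With the covariate 1 member rose and 1 fell in cKO and 4 rose and 1 fell in control cells, against 0.662% of all tested genes in cKO (0.579% higher, 0.0827% lower) and 2.91% in control cells (2.11% higher, 0.800% lower). Without fresh cKO replicate 3, 3 members were called in each genotype (3.09% of all genes in cKO and 1.14% in control cells). A fit of only the groups compared called 17 in cKO (21.6% of all genes) and 0 in control cells (0.0644%). Library weights called 28 in cKO (53.0% of all genes) and 16 in control cells (24.8%). The summed level of the 4 regulatory T cell markers was 570.3 to 635 in stimulated cKO against 474 to 507 in unstimulated cKO libraries, and 533 to 694 in stimulated control against 416 to 455 in unstimulated control libraries. That of the naive CD4 T cell markers was 57064 to 59386 in stimulated cKO against 62560 to 63735 in unstimulated cKO libraries, and 55760.1 to 60504 in stimulated control against 61388 to 62757 in unstimulated control libraries. Their part was not tested.

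The genotype comparisons called no member. In limma 0 of 37 passed in stimulated culture, where 0 had an unadjusted p under 0.05 (1.47% of all genes had one). In unstimulated culture 0 passed and 18 had an unadjusted p under 0.05, 48.6% of members against 33.2% of all genes. In fresh cells 0 passed and 1 had an unadjusted p under 0.05, against 3.94% of all genes. Over all genes the calls were 0%, 0% and 0.00919%. The smallest adjusted p among members was 0.974 in stimulated, 0.103 in unstimulated and 0.79 in fresh cells. The largest differences in size were 0.35 (Relb) for stimulated, -1.09 ± 0.35 (Tab1) for unstimulated and -0.57 ± 0.24 (Bcl3) for fresh cells. The lowest difference in stimulated cells was -0.23 ± 0.14 (Rnf31, the catalytic LUBAC ligase). The differences in fresh cells were, without fresh cKO replicate 3, -1.03 ± 0.28 for Tab1 (adjusted p = 0.0409) and -1.04 ± 0.31 for Nfkbib (adjusted p = 0.0459). In unstimulated culture 3 marker sums did not overlap between the genotypes, those of the regulatory T cell, memory T cell and B cell markers, with the ranges given above. In fresh cells that of the naive CD4 T cell markers did not overlap and was higher in cKO, with the ranges given above. In stimulated culture that of the red cell markers, all below the minimum, was 6.61 to 7.39 in cKO against 6.22 to 6.54 in control libraries. The part of these cells was not tested.

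In unstimulated culture the libraries of 18 members lay wholly lower in cKO than in control cells, and those of 9 wholly higher, as did 28.6% and 23.5% of all genes. Tab1 had 6.67, 6.97 and 6.48 in unstimulated cKO against 7.54, 7.86 and 7.99 in unstimulated control libraries. Nfkbib, encoding IkB-beta, had 6.27, 6.49 and 5.90 in unstimulated cKO against 6.88, 7.26 and 7.66 in unstimulated control libraries. The difference of Nfkbib was -1.05 ± 0.38 (adjusted p = 0.104), and an annotated gene on the opposite strand covers 14.5% of its exonic bases. Relb differed by -0.97 ± 0.27 (adjusted p = 0.103). At the other end, Tab2 differed by 0.34 ± 0.10 and Chuk by 0.31 ± 0.10 (both adjusted p = 0.103).

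These differences ran with the GC content of the transcripts. Over the 37 members Pearson's r between GC content and the cKO minus control difference was -0.83 and Spearman's rho -0.84, a description across genes that share the same 6 libraries. The 12 members richest in GC (56.8% to 62.6%) were all lower in cKO, with a median difference of -0.86, and the 12 poorest (38.4% to 47.3%) had a median of 0.25, with 3 lower. The GC slopes of the libraries did not overlap between the groups, at -0.13 ± 0.06 in unstimulated cKO and 0.15 ± 0.09 in unstimulated control libraries (SD, n = 3), so genotype and GC slope cannot be told apart here by group. With the slope as a covariate the correlation was -0.13, the medians were -0.03 and -0.04, and Tab1, Nfkbib and Relb differed by -0.16 ± 0.11, -0.0026 ± 0.10 and -0.29 ± 0.12. The slope was itself fitted to GC content over the tested genes of these libraries. A weaker correlation after this adjustment is therefore built in and is not a separate result. Tbk1, one of the 12 poorest in GC, differed by -0.22 ± 0.07 from group means and -0.23 ± 0.07 with the covariate (adjusted p = 0.103 and 0.677).

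**Figure D4:**
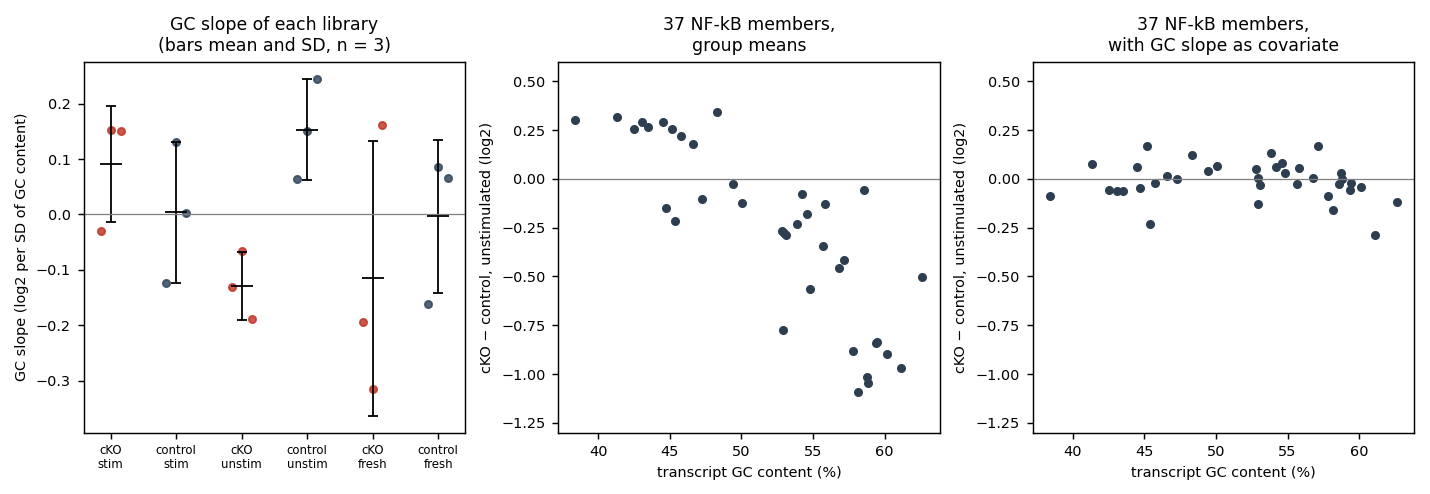
Left, GC slope of each library (log2 per SD of GC content; Creld1 cKO red, control dark; bars mean and SD, n = 3), where unstimulated cKO libraries lie below and unstimulated control libraries above 0. Middle and right, cKO minus control difference in unstimulated culture (log2) against transcript GC content (%) for the 37 members, from group means (r = -0.83) and after adding GC slope as covariate (r = -0.13). The slope was fitted to GC content in the same values, so the weaker correlation at right is built in.

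Without fresh cKO replicate 3, which is in neither unstimulated group but shares the estimate of spread, 18 members passed in unstimulated culture (26.1% of all genes) and 9 in fresh cells (11%), and 0 in stimulated culture (0%). A fit of only the 6 unstimulated libraries called 24 there (34.4% of all genes). Library weights called 31 in unstimulated culture (56.3% of all genes) and 29 in fresh cells (50.7%). With the covariate 0 members passed in any genotype comparison or interaction, where at most 0.0827% of all genes did. The difference in the stimulation effect between genotypes, tested as an interaction, called 0 of 37 members in limma, with 21 at an unadjusted p under 0.05 (56.8%, against 28.0% of all genes), and it called 0.00919% of all genes. The interaction was 1.32 ± 0.38 for Relb (adjusted p = 0.166) and 0.43 ± 0.17 with the covariate, and 0.30 ± 0.10 and 0.32 ± 0.10 for Tbk1. It called 16 members without fresh cKO replicate 3 (15.3% of all genes), 18 in a fit of only the groups compared (21.8%) and 32 with library weights (54.3%). Averaged over conditions, genotype called 0 of 37 members (0.0184% of all genes), with 3 at an unadjusted p under 0.05, against 8.28% of all genes. It called 13 without fresh cKO replicate 3 (14.9% of all genes) and 29 with library weights (47.6%).

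**Figure D5:**
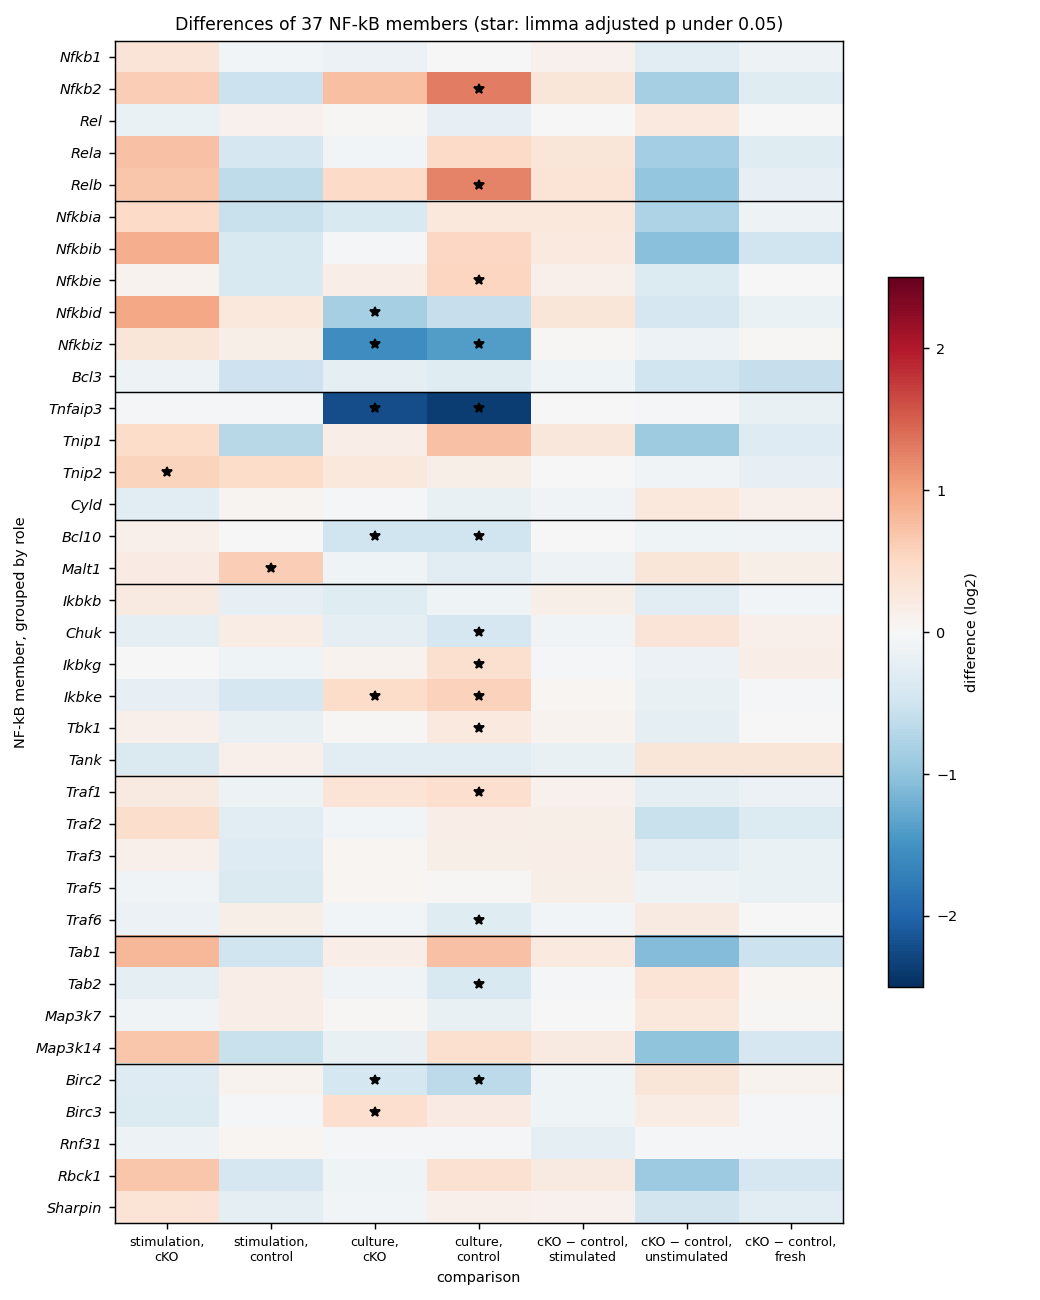
Differences (log2, colour scale) of the 37 members (vertical axis, grouped by role) in 7 comparisons (horizontal axis), with a star where the limma adjusted p is under 0.05. Stars are densest for culture, with 7 in Creld1 cKO and 14 in control cells, against 1 in each genotype for stimulation and 0 for cKO minus control.

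Other genes of the pathway were taken from 3 lists of known upstream genes, regulators and targets. Of 10 genes upstream of the BCL10 and MALT1 complex, 0 rose and 4 fell with unstimulated culture in each genotype. Of all tested genes 11.4% fell in cKO and 14.1% in control cells. With the covariate 6 upstream genes fell in cKO and 7 in control cells, against 24.9% and 20.9% of all tested genes. Among the upstream genes that fell was Prkcb, a protein kinase C, at -0.29 ± 0.08 in cKO (adjusted p = 0.0167) and -0.39 ± 0.08 in control cells (adjusted p = 0.00186). Of 27 further regulators tested, 1 rose and 5 fell in cKO, and 4 rose and 3 fell in control cells, against 22.1% and 29.0% of all tested genes called in either direction. With the covariate 5 rose and 10 fell in cKO and 7 rose and 8 fell in control cells, against 45.3% and 42.9%. Among those that fell in both were the kinase Ripk1, a scaffold downstream of TNF receptors, at -0.30 ± 0.09 (adjusted p = 0.02) in cKO and -0.46 ± 0.09 (adjusted p = 0.0012) in control cells, and the ubiquitin-conjugating enzyme Ube2d3, at -0.61 ± 0.11 (adjusted p = 0.000661) and -0.68 ± 0.11 (adjusted p = 0.00023). The cKO calls of Prkcb and Ripk1 were lost without any 1 of 3 (Prkcb) and any 1 of 4 (Ripk1) cKO libraries, all fresh or unstimulated, and also under quantile normalization and in a fit of only the groups compared. With stimulation 0 genes of either list passed in limma, where 1 upstream gene and 7 further regulators had an unadjusted p under 0.05 in cKO cells and 1 of each list in control cells. Of all 10877 tested genes, 2511 had such a p in cKO and 1233 in control cells. With the covariate 1 upstream gene rose in control cells, Cd28 (0.29 ± 0.06, limma adjusted p = 0.00713). The further regulators called were 0 there, and in cKO cells 0 genes of either list passed. Of all tested genes 2.91% were called with the covariate in control and 0.662% in cKO cells.

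Of 23 target genes tested, of 28 listed, 3 rose and 6 fell with unstimulated culture in cKO cells, and 3 rose and 5 fell in control cells. Of all tested genes 22.1% and 29.0% were called there in either direction. With the covariate 4 rose and 11 fell in cKO and 4 rose and 8 fell in control cells, against 45.3% and 42.9%. With stimulation 2 rose in cKO and 3 in control cells, and 0 fell, against 0.285% and 0.349% of all tested genes. With the covariate 3 rose in cKO and 7 in control cells, against 0.662% and 2.91%. Tnf, the cytokine, rose in cKO cells (1.25 ± 0.16, adjusted p = 0.0019) and differed by 0.78 ± 0.16 in control cells (adjusted p = 0.0628). Il2ra, the IL-2 receptor alpha chain and also 1 of the 4 regulatory T cell markers, differed by 1.09 ± 0.23 in cKO (adjusted p = 0.0525) and rose in control cells (1.20 ± 0.23, adjusted p = 0.0309). The transcription factor Irf4 differed by 1.02 ± 0.22 in cKO (adjusted p = 0.0643) and rose in control cells (1.10 ± 0.22, adjusted p = 0.0395). Bcl2a1b, a survival gene, rose in both (0.85 ± 0.15 and 0.84 ± 0.15, adjusted p = 0.0246 and 0.028), but its near-identical gene copies could share its reads. The control calls of Bcl2a1b, Il2ra and Irf4 were lost without any 1 of 5, 6 and 15 libraries and in a fit of only the groups compared, and the cKO call of Bcl2a1b without any 1 of 6 and under quantile normalization. Differences that missed the threshold passed in some settings. Tnf in control cells passed without any 1 of 2 libraries and in 6 further settings. In cKO cells Il2ra passed without any 1 of 3 libraries and in 5 further settings, and Irf4 without any 1 of 2 and in 4. The median over the 23 targets was 0.36 in cKO and 0.14 in control cells, against 0.01 and -0.02 over all tested genes. With the covariate the target medians were 0.17 and 0.24. The same medians over the 37 members were 0.12 in cKO and -0.13 in control cells, and with the covariate -0.03 and -0.01.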

How the data were processed

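RNA was sequenced in 18 libraries, each of 10 ng of RNA, by single-end reads of 75 bp from TruSeq version 2 libraries, which carry no strand information, per the labels' protocols. The submitters' processing notes name CASAVA 1.8, HISAT2 2.1.0, SAMtools 1.4, Partek 6.6, DESeq2 and mm10, without saying what each did. The deposited log2 values, normalized between libraries by the authors by a method not given in the sources used here, ran from -1.36 to 17.2. The base of the log was inferred from the values, whose linear sums per library were 6782465 to 7419367. Whole reads could not be recovered, so depth is unknown, no counting interval is given and no count-based tool was run although the design allowed for one. Libraries of a group were closer together at low levels (median SD 0.0846 where the mean was below 0 and 0.188 between 6 and 8), which may understate differences of low genes. No libraries held identical values (0 pairs).

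Tests covered the 10877 genes (71.9%) that reached 10 on the linear scale in at least 3 libraries. One model of 6 group means was fitted in R 4.3.3 by limma 3.58.1, using trended moderation (12 residual degrees of freedom, 15.7 including the prior), two-sided tests and Benjamini-Hochberg adjustment over all tested genes at 0.05. The method was checked on simulated data. Alternatives were a pseudocount of 5, no filter, a minimum of 50, TMM-type scaling, quantile normalization, a block for runs of library numbers, a fit of only the groups compared, library weights, no trend, the GC slope as a covariate, both together, and each library left out. GC content and length came from GENCODE M21 on GRCm38 and covered 99.3% of tested genes. The GC slope was computed from the same values that it adjusts.

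Members and lists were chosen with earlier results of these data known. By rule all 37 members could be named, with 4 genes of smallest p for stimulation in control cells from each further list, and Malt1 was due its value in every library; the other members given so, and the listed genes given for other comparisons, were picked after values were seen. One gene of the upstream list is not reported here.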

Additional observations from a re-analysis of the deposited data

How the results depend on the processing

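Counts of called members depended on how the spread was estimated. Shares over all genes are given above for some of these fits only, and for neither block fit. Counts without a share describe the fit and are no result about the members. In the order stimulation in Creld1 cKO cells, stimulation in control cells, culture in Creld1 cKO cells, culture in control cells, stimulated culture against fresh, Creld1 cKO cells, and stimulated culture against fresh, control cells, the counts reported are 1, 1, 7, 14, 12 and 8. With only the groups compared they were 17, 0, 3, 16, 4 and 5, and under library weights 28, 16, 19, 20, 30 and 17. With GC slope as covariate they were 2, 5, 16, 19, 17 and 20. The run block (replicate block by runs of library numbers) gave 3, 2, 11, 16, 14 and 11, and the block with the GC slope 4, 6, 17, 18, 17 and 21. For stimulation in Creld1 cKO cells the count was 0 with no filter, under TMM-type scaling and under quantile normalization, the last of which gave 2 for stimulation in control cells. Library weights gave 29 for genotype in fresh cells, 31 for genotype in unstimulated culture, 29 for genotype averaged over conditions and 32 for the genotype by stimulation interaction. Only the groups compared gave 24 for genotype in unstimulated culture and 18 for the genotype by stimulation interaction, and the block gave 7 for genotype in unstimulated culture.

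With each library left out in turn, counts ranged from 0 to 3 for both stimulation effects, 5 to 13 and 9 to 18 for culture in cKO and control cells, and 8 to 25 and 5 to 13 for stimulated against fresh cKO and control cells. They ranged from 0 to 9 for genotype in fresh cells, 0 to 18 in unstimulated culture, 0 to 0 in stimulated culture, 0 to 13 averaged, 0 to 16 for the genotype by stimulation interaction and 0 to 0 for the genotype by culture interaction. The share of all genes called also changed with the library left out, and it is given above for some of these fits only. Over all 37 members and 12 comparisons, 140 of 444 differences changed sign with the GC slope, of which 0 passed without it and 1 with it. Among the differences of single members printed in the report, direction changed for Nfkbia, culture in control cells, to -0.097 with the GC slope and -0.019 with block and slope, for Nfkbib, genotype in unstimulated culture, to 0.022 with block and slope, and for Tnfaip3, stimulation in Creld1 cKO cells, whose value ranged from -0.096 to 0.0079 with a library left out. The cause of these changes was not tested. Of 43 calls of members, 20 held in all 29 other settings, among them Tnfaip3 and Nfkbiz in all 4 comparisons with fresh cells.

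Libraries of one run of numbers did not deviate together in every pair (45 pairs, r -0.68 to 0.69, median 0.13, against a median of -0.067 over 90 pairs from different runs), and 10 of 18 libraries correlated best with one of their own run. This is a hint from the data and not from the design, and the runs were not taken as pairs. A count-based tool was not run, as no counts were at hand.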
